A study of Mus musculus with 2 samples.

Results

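Egr1, Egr2, Egr3, Egr4, Nr4a1, Nr4a2, Nr4a3, Arc and Npas4 are genes whose transcription is known to rise within minutes of a stimulus. These 9 genes were taken by name from the 21911 protein-coding genes of GENCODE M21. The rule that names them uses no measured value, though earlier results of these data were known when they were chosen. DNase-seq maps the open chromatin that the enzyme DNase I cuts. It had been run on MN1, which the labels call an immortalized mouse cell line of strain B6NCrl, in 1 group of 2 biological replicates. Both replicates were given 10 nM methyltrienolone, a synthetic androgen, so no condition could be compared and no test between groups was possible. The labels give no tissue, sex, age or treatment time, and an untreated library was not analysed here.

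The EGR proteins are zinc finger transcription factors that bind GC-rich sites, and the NAB proteins are their corepressors. The NR4A proteins are orphan nuclear receptors that bind a site called the NBRE, and NUR77 and NURR1 also pair with retinoid X receptors. Arc is a protein of the postsynaptic side that takes part in removing glutamate receptors from synapses. NPAS4 is a basic helix-loop-helix factor, induced in neurons by calcium entry, that pairs with ARNT proteins. Upstream of these genes, kinases of the calcium, cAMP and MAP kinase routes act through factors already in the cell. CREB binds the CRE, SRF binds the CArG box together with ETS factors, and MEF2 proteins bind the MEF2 box, so such genes can answer before any new protein is made.

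The authors' lists held 189648 distinct peaks on the main chromosomes in replicate 1 and 170745 in replicate 2. Each peak is 150 bp wide and carries a whole-number score of at most 150, and no source used here states what the score measures. Scores are therefore given with their percentile in their own list, and the lower percentile of both replicates is used to rank a gene or region. Of the peaks, 68.7% in replicate 1 and 76.7% in replicate 2 had a counterpart in the other list. The labels name the sequencers of replicate 1 but none for replicate 2. Overlapping peaks of both replicates were joined into 127807 shared regions. A promoter is called open here where a shared region lies within 1 kb of any annotated transcription start site (TSS). Absence of a peak depends on depth and on the caller's threshold. By this measure 59.5% of all protein-coding genes were open. The neuronal markers were open at 6 of 6 genes and the motor neuron markers at 5 of 7, with no peak at Mnx1 or Slc5a7. Among those 5, Lhx3 had scores of only 58 and 36. Among markers of other cells, 1 of 4 glial genes (Gfap) and 3 of 4 fibroblast genes (Col1a1, Col1a2 and Pdgfra) were open. With so few genes, these counts do not identify the cells.

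The sequences below are those under the regions on which the results turn, read from GRCm38 (mm10) on the strand of the gene, 5′ to 3′. Capitals mark matches to the motifs searched, on either strand. These were the CRE (TGACGTCA), its core (TGACG, part of every CRE), the AP-1 site (TGANTCA), the EGR motif (GCGNGGGCG), the NBRE (AAAGGTCA), the site of NPAS4 type (TCGTG), the ETS site (CCGGAAGT), the CArG box, the MEF2 box and the androgen response element with up to 2 mismatches. A match describes letters and does not show that a factor was bound.

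The Egr2 stretches are shown because each holds a CArG box under a peak of both replicates. They lie at chr10:67537376-67537525 and chr10:67537787-67537816 (30 bases around a further box), both on the + strand.
Egr2 promoter: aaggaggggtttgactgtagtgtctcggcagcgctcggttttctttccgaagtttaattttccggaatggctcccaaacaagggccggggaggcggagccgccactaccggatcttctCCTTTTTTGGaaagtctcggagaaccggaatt
Egr2 nearer the start: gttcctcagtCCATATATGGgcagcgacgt

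For Nr4a1 the upstream promoter, the distal region with the highest scores and the inner promoter, which had no peak, are shown so that they can be compared. They lie at chr15:101254026-101254175, chr15:101246386-101246535 and chr15:101266696-101266845 on the + strand. The Nr4a2 promoter lies at chr2:57124116-57124265 on the - strand and, like the upstream promoter of Nr4a1, carries a MEF2 box beside CRE cores.
Nr4a1 upstream promoter: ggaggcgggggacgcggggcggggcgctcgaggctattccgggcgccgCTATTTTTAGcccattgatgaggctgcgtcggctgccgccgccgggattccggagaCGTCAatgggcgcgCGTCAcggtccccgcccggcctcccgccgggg
Nr4a1 distal region: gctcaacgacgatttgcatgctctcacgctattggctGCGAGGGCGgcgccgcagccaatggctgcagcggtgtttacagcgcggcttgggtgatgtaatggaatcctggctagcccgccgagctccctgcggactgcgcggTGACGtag
Nr4a1 inner promoter: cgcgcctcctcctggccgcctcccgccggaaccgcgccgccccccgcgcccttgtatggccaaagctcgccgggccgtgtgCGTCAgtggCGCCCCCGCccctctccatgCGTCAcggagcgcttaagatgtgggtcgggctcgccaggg
Nr4a2 promoter: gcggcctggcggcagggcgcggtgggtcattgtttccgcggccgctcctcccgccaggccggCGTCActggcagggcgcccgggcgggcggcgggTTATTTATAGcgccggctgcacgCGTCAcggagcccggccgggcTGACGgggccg

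For Arc the start site, the region further upstream in the promoter and a distal region are shown, since the latter pair each hold a CArG box. They lie at chr15:74672576-74672725, chr15:74673416-74673565 and chr15:74679246-74679395 on the - strand. For Npas4 the 30 bases around the CArG box of its only promoter region are given, at chr19:4990912-4990941 on the - strand.
Arc promoter: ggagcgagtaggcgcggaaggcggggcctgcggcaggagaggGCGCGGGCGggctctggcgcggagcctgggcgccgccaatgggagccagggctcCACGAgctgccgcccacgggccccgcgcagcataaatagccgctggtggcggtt
Arc further upstream: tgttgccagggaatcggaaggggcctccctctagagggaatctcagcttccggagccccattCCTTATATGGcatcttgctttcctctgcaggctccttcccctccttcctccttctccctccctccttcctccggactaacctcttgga
Arc distal region: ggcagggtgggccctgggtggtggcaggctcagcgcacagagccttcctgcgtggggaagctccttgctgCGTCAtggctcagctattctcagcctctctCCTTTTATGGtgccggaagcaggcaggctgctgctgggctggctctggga
Npas4 site: ggattcctgtCCTAATATGGagctgggatt

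All 9 members had an open promoter, where 59.5% of all protein-coding genes did. Of their 29 distinct TSS, 23 had a shared region within 1 kb, against 52.4% of the 93504 distinct TSS of protein-coding genes. The members were far from alike in score. By the lower percentile, Egr1, Egr2, Egr3 and Arc lay above the median open gene and the NR4A genes lay somewhat below it. Egr4 and Npas4 lay near the bottom of the range. The median lower percentile of the members was 93.5, and that of the 13020 open genes with a promoter peak in each replicate was 94.7 (quartiles 87.5 and 97.6). Thus 4 of 9 members were above the median of open genes by the lower percentile. In each replicate alone, the members' median score was higher than that of open genes. It was 139 against 137 in replicate 1 and 133 against 128 in replicate 2. Nr4a3 in replicate 1 (139) and Nr4a2 in replicate 2 (135) lay above those medians of open genes, and Nr4a1 equalled the median in replicate 1 (137). In bulk DNase-seq, a low score in all cells and a high score in few cells cannot be told apart.

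**Figure D1:**
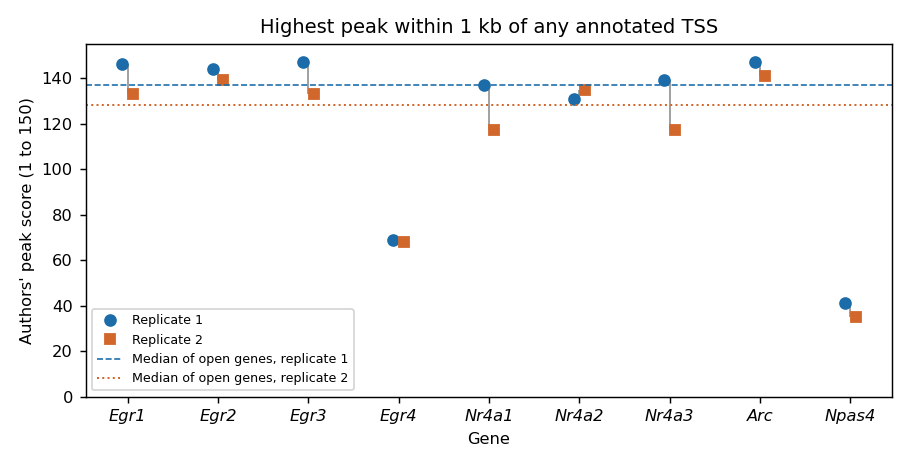
Authors' score of the highest peak within 1 kb of any annotated TSS of each gene, in replicate 1 (circles) and replicate 2 (squares), with grey lines joining the replicates and dashed or dotted lines at the median of open genes (137 and 128). All but Egr4 and Npas4 sit at 117 or above in both replicates, with Egr4 at 69 and 68 and Npas4 at 41 and 35.

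Egr2, which is needed for myelination by Schwann cells, had promoter scores of 144 in replicate 1 and 139 in replicate 2. Its mean percentile was 98.3 ± 0.347 (SD, n = 2), and it ranked at percentile 80.7 among open genes by the lower percentile. The gene lies at chr10:67535475-67542188 on the + strand and had 4 peaks in its promoter windows in each replicate. The highest of them was centred 1975 bp downstream of the first TSS and upstream of the start at 67537869. The next, nearer that start, had scores of 133 and 117 and held the further CArG box printed above. Regions at 745 bp (120 and 113) and 1445 bp (71 and 72) made up the rest. All 6 distinct TSS of Egr2 had a shared region within 1 kb.

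Egr3, which is known for its part in muscle spindle development, scored 147 and 133. Its mean percentile was 98.0 ± 1.55 (SD, n = 2), and it ranked at percentile 67.8. The gene lies at chr14:70077203-70082614 on the + strand. All of its promoter signal found in both replicates was in 1 region centred 353 bp upstream of the first TSS. A weak peak just inside the gene, scored 45, was present in replicate 1 and absent in replicate 2, as was a peak of 76 at -973 bp. Further peaks stood upstream at -1293 bp (122) and -1253 bp (98) in replicates 1 and 2, and at -2253 bp (141 and 125) and -2593 bp (138 and 129) in both.

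Egr4 had a single shared promoter region, centred 181 bp upstream of its only TSS, with scores of 69 and 68. Its mean percentile was 65.3 ± 1.86 (SD, n = 2). Among open genes it ranked at percentile 9.80. The gene lies at chr6:85511121-85513589 on the - strand and had no peak in its body in either replicate. The CpG ratio of its promoter, the number of CpG found over the number that base composition predicts in 1001 bp, was 0.836. In that range, 0.8 to 0.9, 91.0% of 9555 TSS were open, so Egr4 was open like most starts of its kind but with a low score.

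Nr4a1 and Nr4a3 encode NUR77 and NOR1, and Nr4a2 encodes NURR1, which dopamine neurons need. Nr4a1 scored 137 and 117 (mean percentile 93.9 ± 2.23, SD, n = 2). Nr4a2 scored 131 and 135 (95.5 ± 2.78). Nr4a3 scored 139 and 117 (94.3 ± 2.72). By the lower percentile they ranked at 37.9, 43.1 and 37.9 among open genes, so the 3 receptors lay close together and differed by no more than the spread between replicates.

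Within Nr4a1 (chr15:101254269-101274795, + strand) the annotated starts behaved differently. Distances are given from the start named, negative where upstream. The first start, at 101254269, had the peak of 137 and 117, centred at -179 and -159 bp. The inner start at 101266846, shared by a pair of transcripts and the only Nr4a1 start among the RefSeq promoters, had no peak and no hotspot within 1 kb in either replicate. Hotspots are the wider stretches of enriched cutting that the authors called beside the peaks. The nearest peak to that start was an intronic one at -6236 and -6216 bp, scored 138 and 120. Every 32-base word around the inner start occurs once on the main chromosomes. Its CpG ratio was 0.745, and 89.0% of the 11076 TSS between 0.7 and 0.8 were open. Its RefSeq promoter, 300 bases long, had 4 CRE cores and an EGR motif at -60 bp, and MEF2 boxes lay at -299 and -265 bp. Whether this start was used in these cells was not tested, since no RNA was measured here.

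Nr4a2 (chr2:57106830-57124003, - strand) had shared regions at its first start and at inner starts. The first start had the peak of 131 and 135 and the MEF2 box printed above, at -167 bp. The inner start at 57115038 had peaks of 92 and 77 close to it, and a full CRE lay at -47 bp from that start, inside a hotspot of both replicates but outside the peaks. Between them, 7143 bp into the gene, an intronic region scored 135 and 124, near the scores of the first start. Other shared regions scored 74 and 75 at 393 bp, 99 and 94 at 7503 bp and 89 and 74 at 7893 bp. Nr4a3 (chr4:48045153-48086447, + strand) had neighbouring promoter regions centred at -363 and -63 bp, with scores of 139 and 117 and of 138 and 110, and another at 867 bp with 89 and 71. Upstream of the 1 kb window, Nr4a3 had shared regions at -1693 bp, with scores of 143 and 138, and at -2153 bp, with 138 and 118. Its body held 7 further shared regions, of which 3, between 1167 and 2237 bp, had scores from 36 to 63, and 4 lay from 19457 to 32987 bp. Neither of its inner starts, at 48049114 and 48051248, had a peak within 1 kb. Of the 6 member TSS without a shared region, 2 were in Nr4a1, 2 in Nr4a3, 1 in Nr4a2 and 1 in Egr3.

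Arc (chr15:74669083-74672570, - strand) had the highest promoter of the members by the lower percentile. It scored 147 and 141, a mean percentile of 99.0 ± 0.0799 (SD, n = 2), and ranked at percentile 90.4 among open genes. The peak was centred at -80 bp, and an EGR motif began at -113 bp. The further upstream region, at -920 bp, scored 138 and 125 and held a CArG box. Peaks ran on through the gene, with 5 in the body in each replicate. They scored 74 and 55 at 1070 bp, 68 and 46 at 1470 bp, 80 and 60 at 1850 bp and 111 and 89 at 2320 bp. The strongest of these was near the 3′ end, 2990 bp after the start, with scores of 141 and 105.

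Npas4 (chr19:4984355-4990316, - strand) had the lowest promoter of the members. Its only promoter region, centred 664 bp before the first TSS, scored 41 and 35 (mean percentile 31.5 ± 6.53, SD, n = 2) and ranked at percentile 2.67 among open genes. With a window of 500 bp, or with the stronger 50% of each list, Npas4 was the member without an open promoter and the count was 8 of 9. The CpG ratio at its main start was 0.451, a range (0.4 to 0.5) in which 50.9% of 5884 TSS were open. No peak lay in the gene body. Stronger regions stood upstream, at -2784 bp (132 and 105) by the start of the annotated gene AC124502.5, and at -11634 bp (134 and 114).

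**Figure D2:**
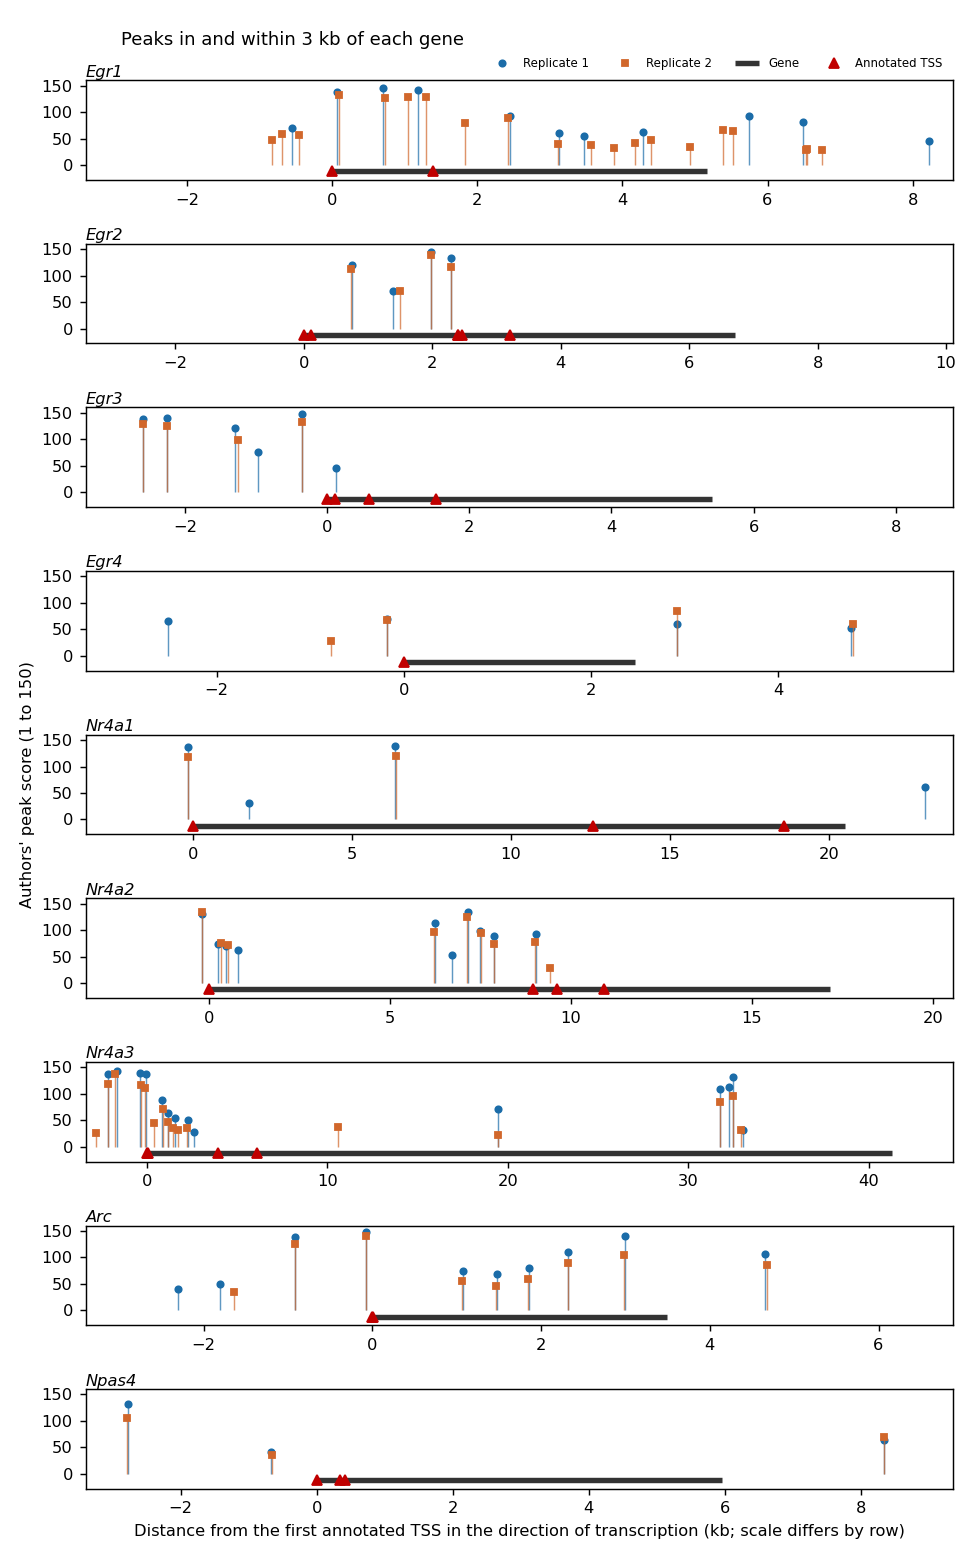
Peaks in and within 3 kb of each gene, by the distance of their centre from the first annotated TSS (kb, different scale in each row) and the authors' score, in replicate 1 (circles) and replicate 2 (squares), with the gene as a black bar and its TSS as triangles. Peaks run through Egr1 and Arc, the inner starts of Nr4a1 carry none, and Egr4 and Npas4 have none in the gene body.

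Egr1, a widely used marker of recent stimulation, lies at chr18:34859823-34864984 on the + strand. Its highest promoter peaks scored 146 and 133, a mean percentile of 97.8 ± 1.29 (SD, n = 2), at percentile 67.8 among open genes. The gene was open along nearly its whole length. A hotspot of 4424 bp in replicate 1 and 5329 bp in replicate 2 covered its start, and the smaller width ranked at percentile 99.9 among open genes with such a hotspot. Replicate 1 had 7 peaks in the gene body and replicate 2 had 12. Shared regions stood at -573 bp (69 and 59), 77 bp (138 and 133) and 717 bp (146 and 127) from the first TSS, and at 2437 bp (93 and 89). Those at 3117, 3517 and 4277 bp were weaker, with scores from 38 to 63.

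The inner start of Egr1, at 34861207, is preceded by 5 CArG boxes, whose first bases lie at -407, -369, -353, -105 and -83 bp. All 5 were inside peaks of replicate 2 and none was inside a peak of replicate 1, while hotspots of both replicates covered all of them. In replicate 1 a single peak, scored 142, was centred at -197 bp from this start, between the outer 3 boxes and the inner 2. In replicate 2 peaks of 129 and 128 lay over the 2 groups of boxes. The 1 bp rule joined these into 1 shared region, and the 150 bp around its centre hold no CArG box, so Egr1 does not enter the count of promoter regions with the box given further on.

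The order of the members by hotspot width was another than by peak score. The median smaller width over a TSS was 1241 bp in open genes. Widths in replicates 1 and 2 were 2062 and 1388 bp at Egr2, 2076 and 1895 bp at Arc, and 1740 and 1663 bp at Nr4a2. Nr4a3 had 4366 bp in replicate 1 and 1609 bp in replicate 2, the least alike pair, and Nr4a1 had 1008 and 795 bp. No hotspot covered a start of Egr4 or Npas4 in either replicate, and Egr3 had one of 222 bp in replicate 1 alone.

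The share of the gene body inside hotspots was 90.9% and 94.4% in Egr1 and 94.2% and 74.4% in Arc, at percentiles from 98.8 to 99.4 of open genes. It was 30.7% and 29.9% in Egr2, 28.0% and 28.4% in Nr4a2, 11.7% and 11.0% in Nr4a3 and 8.40% and 3.96% in Nr4a1. The median open gene had 7.54% and 6.66%. Egr3 had 4.10% and 0%, and Egr4 and Npas4 had 0% in both. Egr1 and Arc are short genes, and gene length was not adjusted for.

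**Figure D3:**
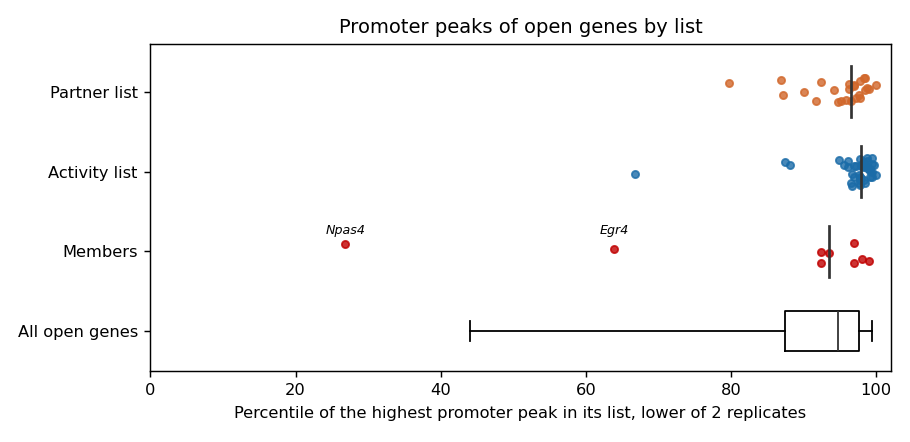
Percentile of the highest promoter peak in its list (lower of 2 replicates) for all open genes (box at the quartiles, whiskers at the 5th and 95th percentile), the members, and the open genes of the activity and partner lists (1 point a gene, bars at the medians). Most members lie beside the other lists, between 92.4 and 99.0, with Egr4 at 63.9 and Npas4 at 26.8.

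Around the members, 306 shared regions lay in the genes or within 100 kb of them. Of these, 23 were at a member's promoter, 18 were in a member's body and 146 were distal, meaning more than 2.5 kb from any TSS. These classes overlap, since 8 of the distal regions were in a member's body. Another 89 regions were at promoters of other genes. Of all shared regions, 59.6% were distal. Of the distal regions 95 were intergenic, 41 intronic and 10 exonic, and for 70 of them the member was the nearest protein-coding gene. Of the peaks in these windows, 309 of 413 in replicate 1 (74.8%, 95% Wilson interval 70.4% to 78.8%) and 316 of 392 in replicate 2 (80.6%, 76.4% to 84.2%) had a counterpart in the other list. Over all peaks the shares were 68.7% and 76.7%. Neighbouring peaks are not independent, so the Wilson intervals cover counting error only. Of the 146 distal regions 90 had the higher percentile in replicate 1, and over all 76127 distal regions 57.2% did.

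Nr4a1 had the most distal regions, 36, at percentile 97.3 of all protein-coding genes. Egr1 had 23 (percentile 88.6), Egr3 21 (85.7), Npas4 16 (equal to the upper quartile), Nr4a2 13 (66.1), Arc 11 (59.3), Egr4 10 (55.6), and Egr2 and Nr4a3 8 each (47.5). The members' median was 13 and that of all genes was 9 (quartiles 3 and 16), and 7 of 9 members lay above the latter. Unlike the background of the promoter scores, this one includes genes without an open promoter. The windows are not free of other genes. They held from 1 protein-coding gene (Nr4a2) to 14 (Npas4), counting the member, so a region cannot be assigned to a member by position alone.

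**Figure D4:**
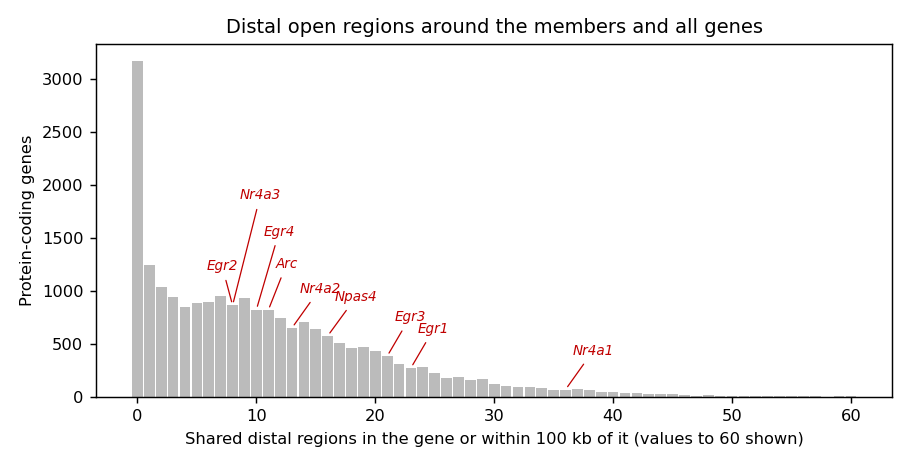
Number of protein-coding genes (y axis) by the number of shared distal regions in the gene or within 100 kb of it (x axis), with the members marked. Nr4a1, at 36, lies in the upper tail, and Egr2 and Nr4a3, at 8, lie just below the median of 9.

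The region 7809 bp upstream of Nr4a1 (chr15:101246376-101246545) scored 150 and 147, and its lower percentile was the highest of all 76127 distal regions. It carries the EGR motif and the CRE core printed above. A further region at -13239 bp scored 145 and 130, and the third by rank was the intronic peak between the 2 promoters. All 3 scored higher than the upstream Nr4a1 promoter in both replicates.

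Arc had a distal region 6750 bp upstream of its start (chr15:74679236-74679405) with scores of 127 and 105. This is near the place of the synaptic activity-responsive element known from neurons, an enhancer bound by CREB, MEF2 and SRF. The stretch printed above holds a CRE core and a CArG box, and no exact match to the MEF2 box as searched here. A MEF2 site that departs from the pattern searched would not be counted. Its lower percentile was 88.2, the same as that of the region at the 3′ end of Arc, where the Arc promoter was at 99.0. The third, at 4670 bp, beyond the 3′ end, scored 107 and 86.

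Egr1 had distal regions at 27727 bp (137 and 129), -9963 bp (119 and 115) and -9553 bp (115 and 107) from its first TSS. The highest at Egr3 was the region at -2593 bp, with 138 and 129, followed by regions at 58477 bp (119 and 108) and -9173 bp (123 and 101). At Egr2 the highest, -23025 bp from the first TSS, scored 83 and 76, and the next were at -22385 bp (82 and 88) and 49525 bp (69 and 62). At Egr4 it was an intronic region of Cct7, 47999 bp downstream, with 73 and 72, followed by regions at -5011 bp (68 and 80) and -76761 bp (62 and 63). The highest distal regions of Egr2 and Egr4 thus scored lower in both replicates than those of the other members. Npas4 had, after the region at -11634 bp, regions of 103 and 99 at -74984 bp and of 107 and 91 at -11944 bp.

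For Nr4a2 and Nr4a3, as for Nr4a1, the 3 highest distal regions were partly within the gene. Nr4a3 had intronic regions at 32477 bp (131 and 95) and 31767 bp (108 and 85), and an intergenic one at -65393 bp (121 and 116). Nr4a2 had an intronic region at 6243 bp (114 and 97), and its next distal region, at 54233 bp, scored 48 and 47. The third, at -74657 bp, scored 37 and 87, with replicates far apart. The median lower percentile of the 13 distal regions at Nr4a2 was 14.5, against 49.2 over all distal regions.

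The CArG box occurred in 5 of the members' 23 promoter regions (21.7%, 95% Wilson interval 9.66% to 41.9%), namely 2 at Egr2 and 1 each at Egr3, Arc and Npas4. It occurred in 0.615% of all 33475 shared regions at promoters of protein-coding genes. The MEF2 box occurred in 2 of 23 (8.70%), at Nr4a1 and Nr4a2, against 0.594%. The CRE core occurred in 9 of 23 (39.1%, interval 22.2% to 59.2%) against 15.8%. The EGR motif occurred in 3 of 23 (13.0%, interval 4.54% to 32.1%), all at Egr1 or Arc, against 4.43%. Regions of 1 gene are not independent, so these intervals cover counting error only.

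In the 150 bp around its centre, no promoter region of a member held a full CRE, an AP-1 site, an NBRE, an ETS site or an androgen response element. Some regions are longer, and their outer parts were not searched. For 0 of 23 regions the Wilson interval reaches 14.3%, and in all promoter regions these motifs occurred in 1.39%, 6.26%, 0.406%, 2.81% and 0.962%. The site of NPAS4 type occurred in 2 of 23 promoter regions (8.70%) and in 10.6% of all promoter regions. It occurred in 6 of 146 distal regions (4.11%) and in 7.19% of all distal regions. Among the distal regions the AP-1 site occurred in 27 of 146 (18.5%) and in 17.5% of all distal regions. The androgen response element occurred in 1 of 146 (0.685%, Wilson interval 0.121% to 3.78%). Of all distal regions 3.51% held it, a share inside that interval. A full CRE lay in 3 of 146 distal regions (2.05%) and in 0.470% of all distal regions, and of the 3 the highest was at -9963 bp from Egr1 with scores of 119 and 115.

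Motifs were also counted from the starts, whether or not a peak was there. Within 500 bp of a TSS the CArG box occurred at Egr1, Egr2 and Egr3, 3 of 9 members, and at 12.1% of open genes. All 3 genes belong to the EGR family, and the boxes of Arc and Npas4 lay further upstream. The EGR motif occurred within that window at 6 of 9 members and at 27.6% of open genes. In the same window the MEF2 box occurred at 2 of 9 members and at 24.1% of open genes, and the CRE core at 8 of 9 and at 77.6%, so both were near the background there. RefSeq promoter sequences (GRCm38.p6, 300 bases each) were given for 6 members with 10 promoters. Of these, 8 held the CRE core (20.8% of 32851 promoters), but 3 of the 8 are overlapping Egr2 promoters with the same cores, so they come from 6 genes. Among the 10, 4 promoters, all of Egr2 and 3 of them overlapping, held a CArG box (1.63%).

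**Figure D5:**
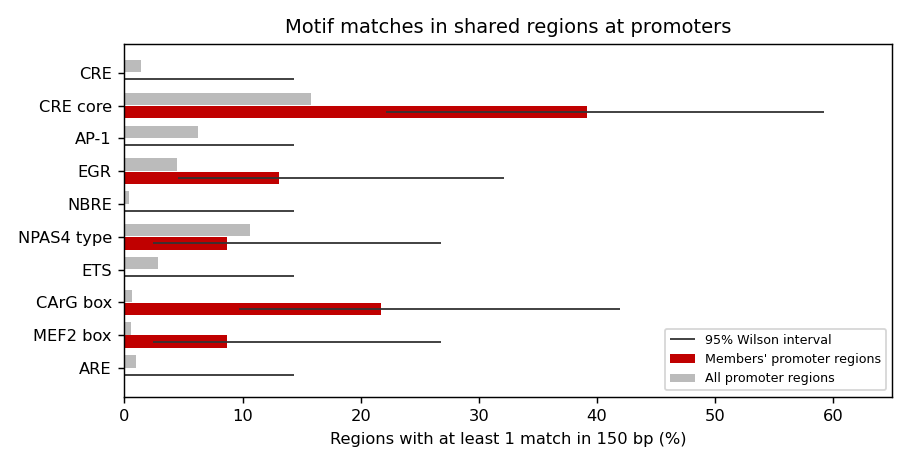
Percentage of shared regions at promoters with at least 1 match to each motif in the 150 bp around their centre, for the members (red, n = 23, lines are 95% Wilson intervals) and for all promoter regions (grey, n = 33475). The members' bars are longest for the CRE core (39.1%) and the CArG box (21.7%), and 5 motifs have no match among the members.

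Of 46 other genes of the response, 40 had an open promoter (87.0%, against 59.5% of all genes), with a median lower percentile of 98.0 against 93.5 for the members and 94.7 for all open genes. The highest were Srf (150 and 148), the factor that binds the CArG box, Jund (149 and 146), an AP-1 subunit, and Dusp6 (148 and 144), a phosphatase that switches off MAP kinases, followed by Dusp5, Klf10 and Vgf at an equal lower percentile of 99.4. Inhba, an activin subunit, Nptx2, a neuronal pentraxin, and Ptgs2, a cyclooxygenase, lacked a promoter peak in both replicates. The lists were drawn up from general knowledge with earlier results of these data known.

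Of 28 partners and upstream regulators, 25 had an open promoter (89.3%, against 59.5% of all genes). Their median lower percentile was 96.6, against 94.7 for all open genes. Srf and Crem are in both lists, so the lists are not separate. Srf led again, followed by Crtc2 (147 and 141), a coactivator of CREB, and by Crem and Rps6ka5 at an equal 98.5. The EGR corepressors Nab1 (113 and 108) and Nab2 (121 and 114) were lower. Of the NR4A partners, Rxra and Rxrb were open and Rxrg had no peak in either replicate. Of the NPAS4 partners, Arnt was open (149 and 136), and Arnt2 had a peak of 21 in replicate 1 alone.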

How the data were processed

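DNase-seq libraries of 2 biological replicates of MN1 cells, 1 group, were read as deposited. Peaks and hotspots were deposited per library on mm10, per the labels. The deposited peak score (column 7) has no stated meaning and was used only to rank and filter peaks within a list. Hotspots carry the authors' −log10 of a q-value, from 1.30 to 100, and only their positions were used. No source used here names the aligner, the caller or the read depth, so precision rests on the replicates.

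Duplicate entries were counted once. Regions shared by both replicates overlapped by at least 1 bp. Percentiles are mid-ranks, and ties share one. Motifs were searched in the 150 bp around a region's centre, and 32-base words were counted on 21 chromosomes. Python 3.11.15, numpy 2.4.6, pandas 2.3.3, scipy 1.17.1 and matplotlib 3.10.9 were used, and the scripts were tested on simulated data. Wilson intervals are at 95%.

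The members, lists, motifs and alternatives were chosen with earlier results of these data known. Named were all members with their promoter and body regions (weak ones, and peaks of 1 replicate, in part as ranges or drawn only) and their 3 highest distal regions, and of each list the highest open genes (the 4 highest, apart from an item not reported here) and the first 3 without a peak. Egr1 sequence is not printed.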

Additional observations from a re-analysis of the deposited data

How the results depend on the processing

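Members with an open promoter numbered 9 under 6 of 8 alternatives and 8 under the others (500 bp window, stronger 50% of peaks), where Npas4 was lost. Open activity genes numbered 39 to 41 and open partners 25 to 26. The members' median percentile was 93.5, 96.9 with a 2.5 kb window, and 96.2 to 96.9 without a replicate, since the lower of 2 values is then not taken. The 146 distal regions fell to 89 with the stronger 50% of peaks. A CRE, CArG or MEF2 box lay in 17 of the 306 regions (5.56%), against 2.54% of all 127807 shared regions. The 17 rose to 26 when 300 bp were searched, where no share over all regions is given. No paired analysis was possible because there is 1 group. Depth is unknown, so it cannot be said which weak sites were missed.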
